A study of Mus musculus with 2 samples.

Results

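The open chromatin around 5 motor neuron homeobox genes, Mnx1, Isl1, Isl2, Lhx3 and Lhx4, was described in DNase-seq data of mouse embryonic neural tube. The genes were chosen by name, and they are 5 of the 21853 protein-coding genes in the annotation. A promoter peak was a peak that overlapped the 500 bp on either side of any protein-coding transcription start site (TSS) of the gene. A distal peak had its centre over 1 kb away from any protein-coding TSS, with a TSS of that gene as the closest. These rules gave 216 of 199653 peaks in replicate 1 and 149 of 154324 peaks in replicate 2. Between both classes, each gene had 0 to 3 peaks in replicate 1 and 0 to 4 peaks in replicate 2, which were not used.

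DNase-seq sequences the ends of DNA fragments cut by DNase I, an enzyme that cuts DNA more often where nucleosomes leave it exposed. The tissue was healthy neural tube, the embryonic forerunner of brain and spinal cord, from embryos of strain B6NCrl aged 11.5 days, with males and females pooled and no treatment given. There was 1 group with 2 libraries, labelled biological replicates 1 and 2, whose tissue samples carry 1 shared donor label. The labels name NextSeq and HiSeq instruments for both libraries and an additional HiSeq model for replicate 2. With no other group, the genes were set against all protein-coding genes and the libraries against each other, and no test was run. The tissue was bulk, so fewer open cells and less open chromatin per cell cannot be told apart.

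All 5 genes encode homeodomain transcription factors that mark motor neurons or the cells that become them. Mnx1, also called Hb9, is switched on as motor neuron precursors leave the cell cycle and holds down interneuron genes. Isl1, Isl2, Lhx3 and Lhx4 belong to the LIM-homeodomain class, in which LIM domains bind partner proteins such as Ldb1. In the spinal cord Isl1 and Lhx3 join with Ldb1 into a complex that drives motor neuron genes, while Lhx3 with Ldb1 alone directs V2 interneuron fate. Outside the spinal cord Isl1 also acts in sensory neurons, heart progenitors, pancreas and hindlimb, and Lhx3 and Lhx4 act in the pituitary.

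The libraries were not alike in yield. Replicate 1 had a median peak score of 45 and 162801 hotspots, the broader enriched regions that the authors called, and replicate 2 had a median peak score of 26 and 132619 hotspots. The score is a whole number of at most 150 whose meaning the sources used here do not give, so it was used only to rank peaks within a library. The depth of sequencing is unknown. Of 10 markers of neural tube, including Sox2, Pax6 and Nkx6-1, 10 had a promoter peak in both libraries. Other tissues that use these genes were also checked. Among pituitary markers, Pitx1 had a promoter peak in both libraries, while Pou1f1, Tbx19, Gh and Pomc had none in either. Sensory ganglion and crest markers found in the annotation had promoter peaks at 7 of 7 genes in replicate 1 and 6 of 7 in replicate 2, which lacked one at Sox10. Pancreas markers had them at 3 of 6 genes in replicate 1 and 4 of 6 in replicate 2. Cardiac markers had them at 3 of 6 in both, with none at Myh6, Myh7 and Tnnt2. Limb markers (Pitx1, Tbx4, Tbx5, Prrx1, Tbx15 and Hoxc10) had them at 6 of 6 in both. Notochord markers had them at 4 of 4 in both, as Tbxt was not found in the annotation. Over all protein-coding genes 68.5% and 67.7% had a promoter peak in replicates 1 and 2. The part of cells of these other tissues in the results was not tested.

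All 5 genes had a promoter peak in both libraries. Over all protein-coding genes 68.5% had one in replicate 1 and 67.7% in replicate 2, so an open promoter was the usual state. Isl1 and Isl2 had the highest-scoring promoters of the 5 and Mnx1 the lowest, in both libraries. Best promoter scores were 88 and 58 for Mnx1, 126 and 125 for Isl1, 133 and 116 for Isl2, 112 and 94 for Lhx3, and 92 and 75 for Lhx4, in replicates 1 and 2. The median gene with a promoter peak scored 128 in replicate 1 and 107 in replicate 2. Mnx1 therefore stood at the 16.5th and 16.2th percentile of such genes, and Lhx4 at the 18.4th and 24.1th. Lhx3 stood at the 29.6th and 35.7th percentile. Isl2 stood at the 60.4th and 62.5th percentile, and Isl1 at the 45.4th in replicate 1 and the 80.3th in replicate 2. Only Isl2 lay above the median of open promoters in both libraries.

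**Figure D1:**
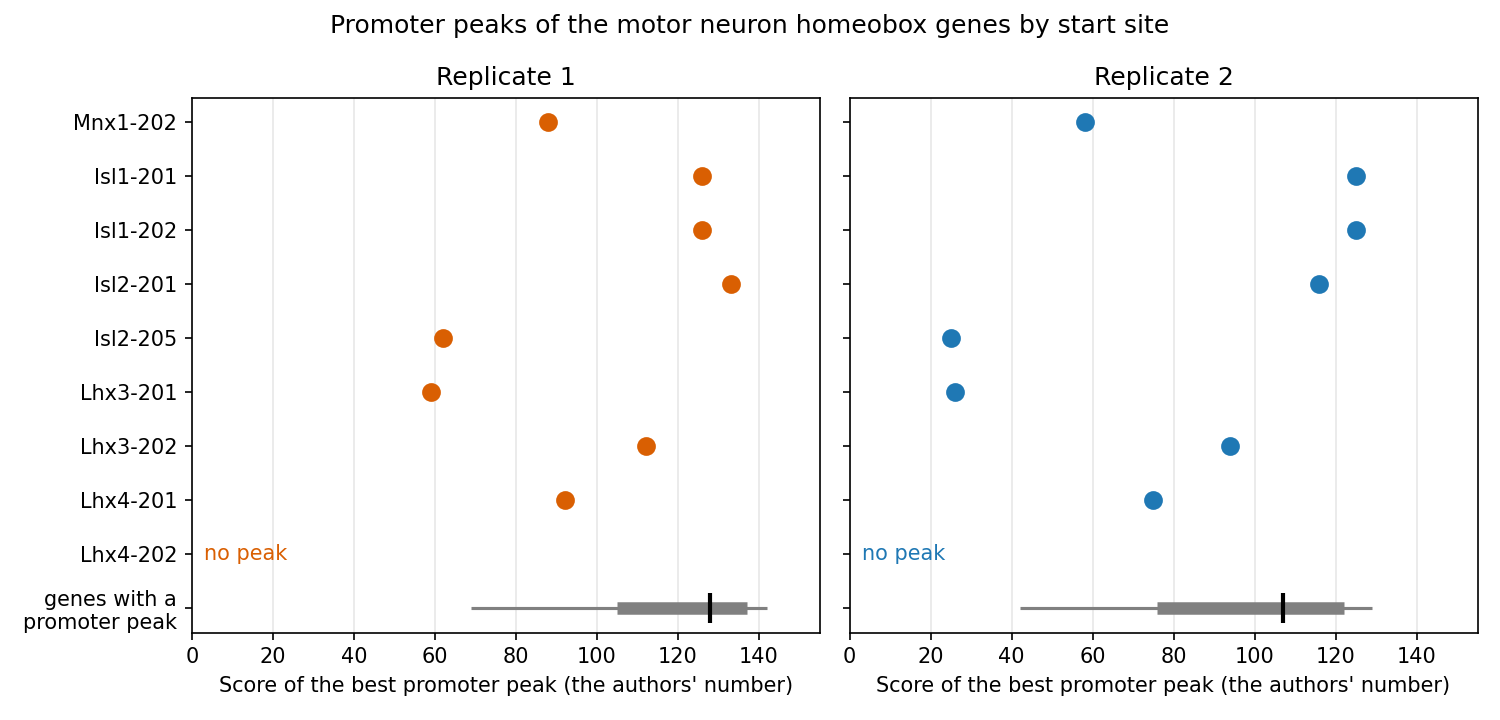
Score of the best promoter peak at each protein-coding TSS of the 5 genes (points; 1 panel per library), with all genes that have a promoter peak at the bottom (tick, median; thick bar, 25th to 75th percentile; thin line, 10th to 90th percentile). Isl2-205 scored below Isl2-201 and Lhx3-201 below Lhx3-202 in both libraries, and Lhx4-202 had no peak within 500 bp in either.

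Of the 4 genes with 2 start sites, Isl2, Lhx3 and Lhx4 had peaks that differed in score between the starts, and Isl1 did not. Isl2-201, which begins at position 55541148 of chromosome 9, had scores of 133 and 116, while Isl2-205, which begins upstream at 55538672, had 62 and 25. Lhx3-202, which begins at 26208289 of chromosome 2, had scores of 112 and 94, while Lhx3-201, which begins at 26206575, had 59 and 26. In mammals these Lhx3 starts lead to proteins with different amino ends. Lhx4-201, which begins at 155742027 of chromosome 1, had scores of 92 and 75. Lhx4-202, which begins at 155751684, had no peak within 500 bp in either library. A hotspot that held a peak was centred 926 bp from it in replicate 1 and 929 bp in replicate 2. The starts of Isl1, at 116309689 and 116309422 of chromosome 13, shared 1 best peak with scores of 126 and 125. Mnx1 has a single protein-coding start at 29478470 of chromosome 5.

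Promoter peaks numbered 2 in both libraries for Mnx1 and for Isl2. Isl1 had 3 in replicate 1 and 2 in replicate 2, and Lhx4 had 3 and 1. Lhx3 had 5 and 7, spread over both of its starts. Among genes with a promoter peak, 3.70% had at least 5 in replicate 1, and 0.872% had at least 7 in replicate 2. The 7 peaks of replicate 2 included 5 around Lhx3-201 with scores of 23 to 26, of which 2 overlap each other.

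The DNA of these promoters is printed because the promoter peaks lie on or beside it, covering it in part. For each gene the 250 bases before the RefSeq start are given in the direction of transcription, from RefSeq on GRCm38.p6, the assembly that mm10 names. Capitals mark matches on either strand to any of 13 motifs named further on. All 5 genes were found in the RefSeq promoter table, Lhx3 with both of its starts. The intervals are chr5:29478471-29478720 (minus strand) for Mnx1, chr13:116309689-116309938 (minus) for Isl1, chr9:55540899-55541148 (plus) for Isl2, chr2:26208250-26208499 (minus) and chr2:26206576-26206825 (minus) for Lhx3, and chr1:155742028-155742277 (minus) for Lhx4.
Mnx1: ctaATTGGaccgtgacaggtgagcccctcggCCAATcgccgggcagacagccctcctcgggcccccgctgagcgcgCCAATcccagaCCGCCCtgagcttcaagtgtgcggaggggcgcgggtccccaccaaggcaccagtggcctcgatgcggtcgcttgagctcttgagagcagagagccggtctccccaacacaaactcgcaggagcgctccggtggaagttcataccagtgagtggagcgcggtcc
Isl1: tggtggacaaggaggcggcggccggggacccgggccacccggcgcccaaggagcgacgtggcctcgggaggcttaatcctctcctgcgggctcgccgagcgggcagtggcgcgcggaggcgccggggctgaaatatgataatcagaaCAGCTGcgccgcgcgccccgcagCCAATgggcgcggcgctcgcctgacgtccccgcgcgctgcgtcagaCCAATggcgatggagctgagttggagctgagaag
Isl2: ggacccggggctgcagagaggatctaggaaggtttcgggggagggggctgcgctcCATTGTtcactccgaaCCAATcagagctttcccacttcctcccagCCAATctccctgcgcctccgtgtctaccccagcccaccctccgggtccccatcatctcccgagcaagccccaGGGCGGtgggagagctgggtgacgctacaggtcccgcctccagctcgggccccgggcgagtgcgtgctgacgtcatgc
Lhx3, upstream start: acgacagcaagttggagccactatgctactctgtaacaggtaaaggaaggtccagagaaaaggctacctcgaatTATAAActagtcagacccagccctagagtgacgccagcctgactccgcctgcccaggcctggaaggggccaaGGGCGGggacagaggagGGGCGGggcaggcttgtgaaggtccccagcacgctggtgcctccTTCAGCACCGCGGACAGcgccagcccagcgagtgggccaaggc
Lhx3, downstream start: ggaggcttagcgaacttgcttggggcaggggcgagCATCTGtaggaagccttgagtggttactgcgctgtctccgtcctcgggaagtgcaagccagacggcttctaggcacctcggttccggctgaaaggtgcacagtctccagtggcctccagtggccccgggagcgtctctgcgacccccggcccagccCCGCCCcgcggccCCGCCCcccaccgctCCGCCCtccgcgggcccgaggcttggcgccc
Lhx4: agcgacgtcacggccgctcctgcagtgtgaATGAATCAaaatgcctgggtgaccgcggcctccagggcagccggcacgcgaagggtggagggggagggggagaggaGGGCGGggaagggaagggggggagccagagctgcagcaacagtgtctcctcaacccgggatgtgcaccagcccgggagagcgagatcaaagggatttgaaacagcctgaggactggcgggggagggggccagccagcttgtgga

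The promoters were rich in G and C, at 66.4% for Mnx1, 71.2% for Isl1, 66.8% for Isl2, 62.0% and 70.8% for the upstream and downstream starts of Lhx3, and 66.0% for Lhx4. The number of CpG dinucleotides in 250 bases ran from 11 at the upstream Lhx3 start to 33 at Isl1. Mnx1 held 3 CCAAT matches, the letters bound by NF-Y, while Isl1 and Isl2 held 2 each and Lhx3 and Lhx4 none. CCAAT occurred in 37.4% of all 32851 RefSeq promoters of 300 bases. GGGCGG, the GC box of Sp factors, occurred at least once in each printed promoter except that of Isl1, and in 35.7% of all promoters. Isl1 held a CAGCTG, an E-box of proneural bHLH factors, 103 bases before its start (16.3% of all promoters). TATAAA stood 176 bases before the upstream Lhx3 start (13.6% of all promoters). At Lhx4 the Hox and Pbx letters TGATTNAT began 220 bases before the start, on the minus strand of the printed run (3.22% of all promoters).

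The upstream Lhx3 start carried a match to letters of a REST site. It was searched as TTCAGCACC, any 2 bases, then GGACAG, a search added after the sequence had been seen. The match at Lhx3 was therefore known beforehand, and the counts below only describe how often these letters occur. REST is a repressor that keeps neuronal genes silent in cells that are not neurons. The match, in capitals near the end of the upstream Lhx3 run, lies at chr2:26208276-26208292 and spans the GENCODE start at 26208289. It lay inside the promoter peak of both libraries, which scored 112 in replicate 1 and 94 in replicate 2. These letters occurred in 4 of 32851 RefSeq promoters, in 14 of 27088 promoter peaks of replicate 1 and in 11 of 25984 of replicate 2. A match of letters is a description and does not show that the factor was bound.

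Distal peaks were many around each of the 5 genes. Mnx1 had 36 in replicate 1 and 12 in replicate 2, Isl1 had 78 and 55, Isl2 had 27 and 14, Lhx3 had 23 and 16, and Lhx4 had 37 and 38. Together these were 201 and 135 distal peaks, a mean of 168 ± 46.7 (SD, n = 2 libraries). The median protein-coding gene had 3 in replicate 1 and 2 in replicate 2, and the 95th percentile was 32 and 23. Isl1 exceeded the 99th percentile, 66 and 48, in both libraries. Lhx4 exceeded the 95th percentile in both libraries and Mnx1 in replicate 1 alone.

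Counts of distal peaks depend on how much DNA is closest to a gene, here called its territory. Isl1 sits in a gene desert with a territory of 962 kb, and its nearest protein-coding neighbours are Parp8 at 545 kb and Itga1 at 1196 kb. The territory was 205 kb for Isl2, 132 kb for Lhx4, 67.3 kb for Mnx1 and 52.1 kb for Lhx3, against a median of 46.4 kb for all genes. Lhx3 is the most crowded of the 5, with Qsox2 only 0.348 kb away. Per 100 kb of territory Mnx1 had 53.5 and 17.8 distal peaks, Lhx3 had 44.1 and 30.7, Lhx4 had 28.0 and 28.7, Isl2 had 13.2 and 6.83, and Isl1 had 8.11 and 5.72. The median of all genes was 5.33 and 3.53 per 100 kb. By density Lhx3 stood at the 98.8th and 97.3th percentile of genes and Lhx4 at the 96.4th and 96.9th. Mnx1 stood at the 99.3th in replicate 1 and the 92.1th in replicate 2. Isl2, at the 82.7th and 68.8th, and Isl1, at the 65.4th and 63.2th, lay nearer the middle. Isl1 thus had the most distal peaks of the 5 genes and the fewest per 100 kb.

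**Figure D2:**
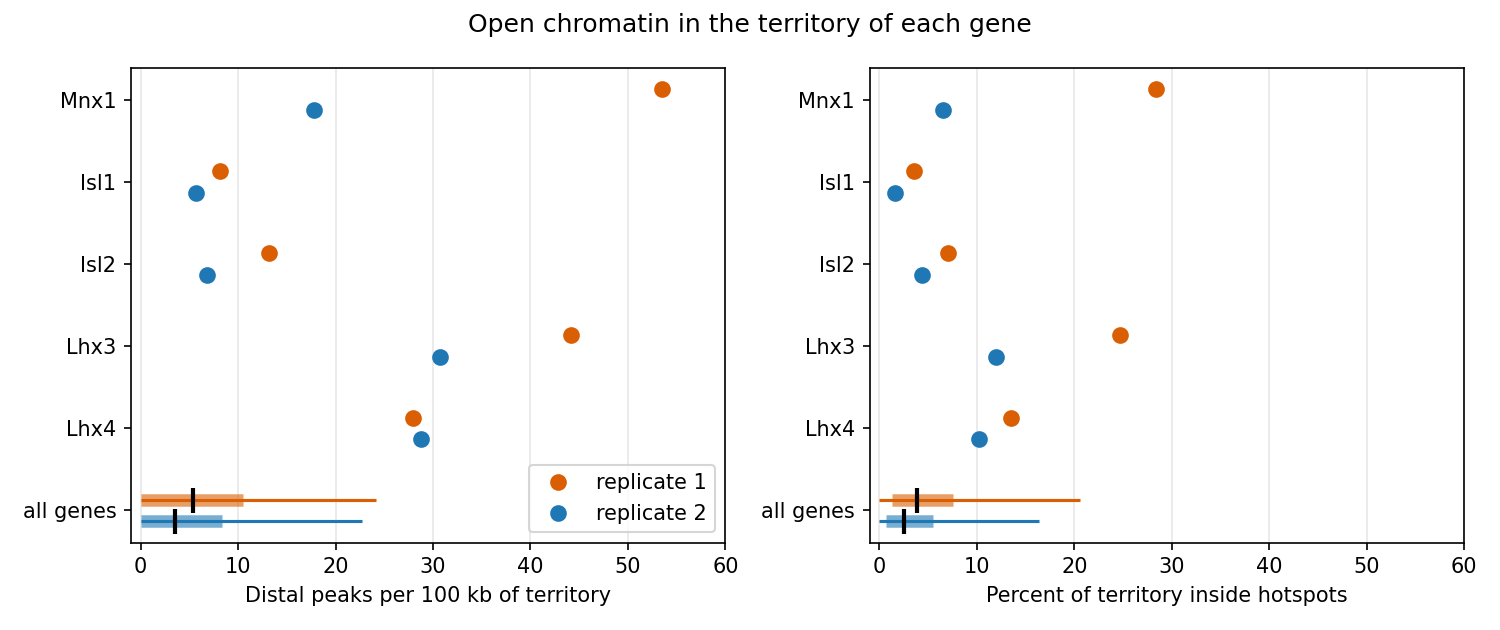
Left, distal peaks per 100 kb of territory. Right, percent of the territory inside hotspots. Points are the 5 genes in replicate 1 and replicate 2, and the bottom rows are all genes (tick, median; thick bar, 25th to 75th percentile; thin line, 10th to 95th percentile). Mnx1 shows the widest gap between libraries, 53.5 against 17.8 peaks per 100 kb, and Lhx4 has nearly equal values in both.

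Hotspots, measured by cover, ranked the 5 genes in the same order as peak density did, in each library. They covered 28.4% of the Mnx1 territory in replicate 1 and 6.55% in replicate 2, 24.7% and 11.9% of the Lhx3 territory, 13.5% and 10.2% of the Lhx4 territory, 7.04% and 4.43% of the Isl2 territory, and 3.54% and 1.63% of the Isl1 territory. The median gene had 3.91% and 2.53%, so Isl1 fell below it in both libraries. Over all 5 territories together the cover was 6.93% and 3.44%, a mean of 5.19% ± 2.47 (SD, n = 2 libraries).

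Within the transcribed genes themselves, hotspots in replicate 1 ran almost from end to end. They covered 99.1% of Mnx1, 96.4% of Isl1, 99.96% of Isl2 and 84.1% of Lhx3 in replicate 1, against a median of 4.05% over all genes. In replicate 2 the cover was 25.7% of Mnx1, 28.7% of Isl1, 87.8% of Isl2 and 43.1% of Lhx3, against a median of 2.73%. These 4 genes are short, from 5.44 kb to 11.4 kb. Among the 5921 genes of 5 to 15 kb they stood between the 98.8th and the 99.8th percentile in replicate 1 and between the 93.9th and the 99.9th in replicate 2. Lhx4, which spans 53.7 kb, was covered to 28.0% and 21.9%. Isl2 alone kept over 50% cover in both libraries. In replicate 1 a single hotspot of 9563 bp spanned the Isl2 start, and in replicate 2 the hotspot there measured 1171 bp. The hotspot over the Mnx1 start was 2785 bp long in replicate 1 with the highest deposited −log10 q of 100, and 810 bp long in replicate 2 with a −log10 q of 5.70. The median hotspot measured 276 bp in replicate 1 and 235 bp in replicate 2.

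**Figure D3:**
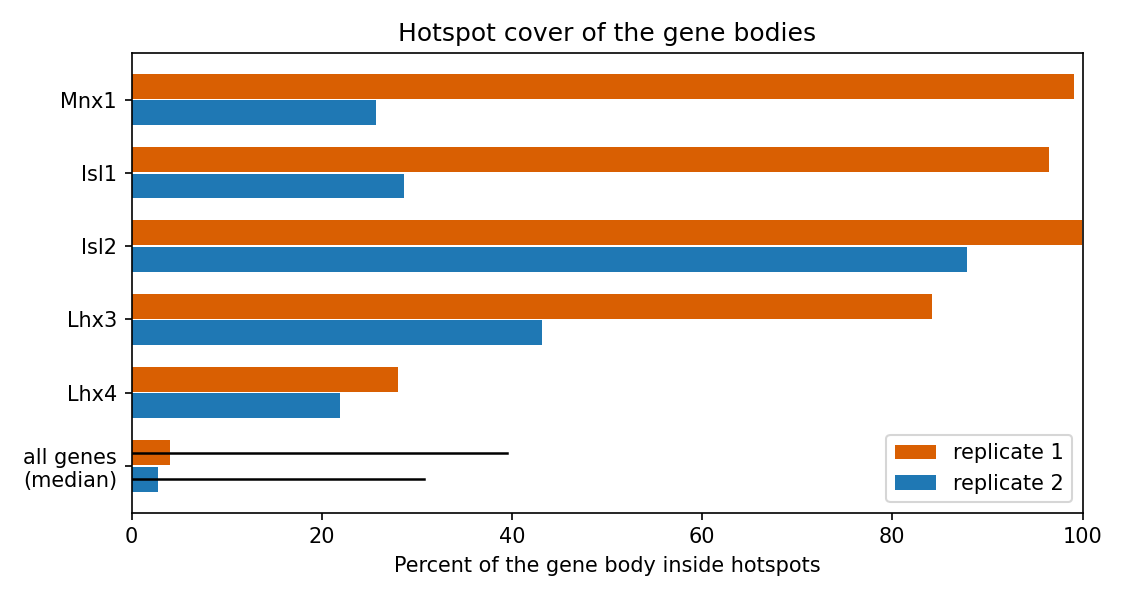
Percent of each gene body, from its first to its last annotated base, inside hotspots of replicate 1 and replicate 2, with the median of all 21853 genes at the bottom (black line, 10th to 95th percentile). Isl2 was covered to 99.96% and 87.8%, while Mnx1 and Isl1 were covered almost entirely in replicate 1 and to less than 30% in replicate 2.

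How many distal peaks were found in both libraries differed among the genes. Of the 5 genes' distal peaks, 40.3% in replicate 1 overlapped a peak of replicate 2 by at least 1 bp, and 63.0% in replicate 2 overlapped a peak of replicate 1, a mean of 51.6% ± 16.0 (SD over both directions of 1 pair). Over all distal peaks these shares were 48.1% and 66.4%. Lhx4 had 48.6% and 50%, Lhx3 had 47.8% and 68.8%, Isl1 had 44.9% and 63.6%, and Isl2 had 37.0% and 78.6%. Mnx1 had the lowest share in replicate 1, 19.4% or 7 of 36 peaks, and a share second to Isl2 in replicate 2, 75% or 9 of 12 peaks. Against hotspots of the other library the Mnx1 shares were 25% and 100%, where all distal peaks gave 50.7% and 75%. Most of what replicate 2 held near Mnx1 was thus also open in replicate 1, and most of what replicate 1 held there was not called in replicate 2.

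Merged over both libraries, the distal peaks formed 236 sites. Of these 78 held peaks of both libraries, 112 held peaks of replicate 1 only and 46 held peaks of replicate 2 only. The sites of both libraries had a median score percentile of 67.5 in replicate 1, and the sites of replicate 1 only had 41.2. Sites numbered 7 in both, 27 in replicate 1 only and 3 in replicate 2 only for Mnx1. They numbered 32, 40 and 17 for Isl1, 10, 15 and 3 for Isl2, 11, 12 and 5 for Lhx3, and 18, 18 and 18 for Lhx4. Lhx4 is the only one of the 5 with as many sites in replicate 2 only as in replicate 1 only.

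**Figure D4:**
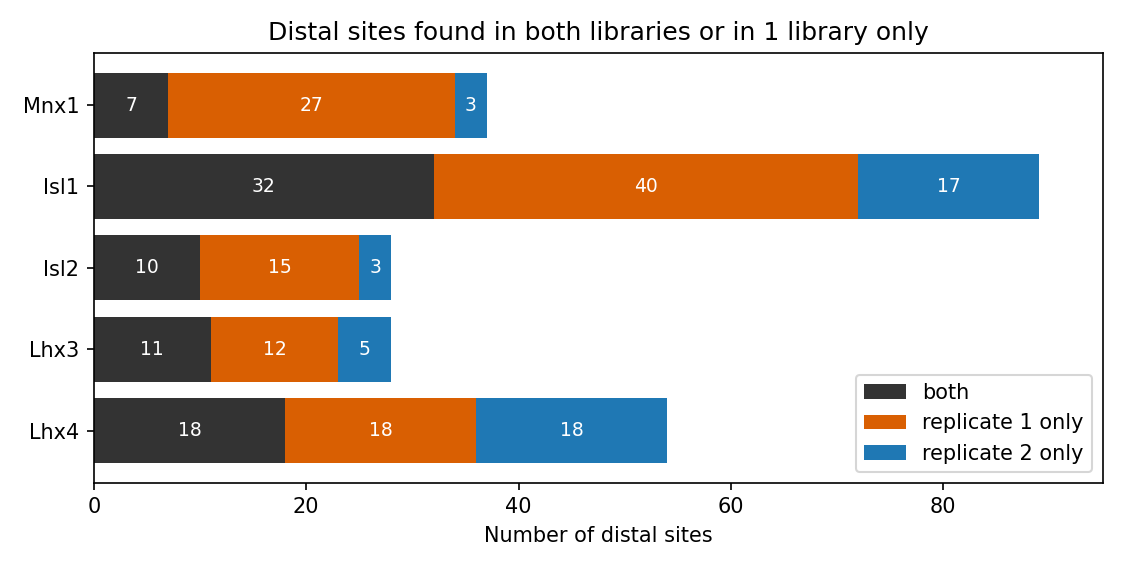
Number of distal sites of each gene with peaks of both libraries, of replicate 1 only and of replicate 2 only. Isl1 has the most sites, 89, and Mnx1 the fewest found in both, 7.

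The ratio of distal peaks in replicate 2 to those in replicate 1 ranged from 0.333 for Mnx1 to 1.03 for Lhx4. It was 0.519 for Isl2, 0.696 for Lhx3 and 0.705 for Isl1. Among the 4863 genes with at least 10 distal peaks in replicate 1 the median ratio was 0.667, and Mnx1 stood at the 5.92th percentile and Lhx4 at the 88.1th. With replicate 1 reduced by score to the length of the replicate 2 list, Mnx1 had 32 distal peaks in replicate 1 and 12 in replicate 2. The gap was smaller in the higher-scoring 50% of each list, with 17 and 12, and with hotspots in place of peaks, with 16 and 11. At both genes runs of peaks occurred in 1 library only, which were looked for after the sites had been seen.

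Upstream of Mnx1, replicate 1 had 15 peaks with no partner in replicate 2 within 8.31 kb, at chr5:29480356-29488665. Their scores ran from 26 to 57, and 11 hotspots covered 5912 bp of the stretch in replicate 1. Replicate 2 had 2 peaks and 458 bp of hotspots in the same stretch. Over all protein-coding genes 26, or 0.119%, had 15 or more distal peaks of replicate 1 alone within 10 kb. Such shares count every gene, and the median gene had 3 distal peaks in replicate 1 and the 90th percentile 20. Many genes thus had too few peaks for such a run, and genes with similar peak numbers were not compared separately. The other 4 genes had such runs of 8 to 11 peaks in replicate 1. Runs with as many peaks occurred at 0.467% of all genes for Isl1 and Lhx3, 0.668% for Lhx4 and 1.35% for Isl2.

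Inside Lhx4 each library had such a run. That of replicate 1 held 10 peaks with no partner in replicate 2, at chr1:155731316-155740045, with scores of 37 to 71. Hotspots covered 6729 bp of it in replicate 1 and 1819 bp in replicate 2. Within 10 kb, at chr1:155701716-155711765, replicate 2 had 13 peaks with no partner in replicate 1, over introns and exons in the 3′ part of the gene. They were among the weakest peaks of their library, with scores of 4 to 10 and a median at the 4.10th percentile, yet 12 hotspots covered 4508 bp there. Several of these hotspots, the longest of 1156 bp included, had the highest deposited −log10 q of 100, and others were as low as 1.73. Of all hotspots of replicate 2, 31.9% had a value of 100. Peak score and hotspot q thus differed in this stretch, and the cause was not tested. Replicate 1 had 1 peak and 324 bp of hotspots in this stretch. As many peaks of replicate 2 alone within 10 kb occurred at 102 genes, 0.467% of all, while the other 4 genes had runs of 2 or 3. That share too counts every gene, and the median gene had 2 distal peaks in replicate 2. In the higher-scoring 50% of each list, Lhx4 had 24 distal peaks in replicate 1 and 16 in replicate 2.

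The distal peaks lay differently around the 5 starts. Around Mnx1 they stayed within 31.1 kb of the start, with 17 upstream and 19 downstream in replicate 1 and 2 upstream and 10 downstream in replicate 2. Lhx3 had 21 of 23 and 13 of 16 downstream, within the gene and in the DNA beyond it up to 37.5 kb from the nearest start. Lhx4 had 28 of 37 and 30 of 38 inside its own gene. Isl2 had 23 of 27 and 12 of 14 downstream, partly in introns of its neighbour Scaper. For Lhx3 and Isl2 most of the territory itself lay downstream, which these counts do not correct for. The Lhx3 territory spans 26164697 to 26216830 around the start at 26208289, on the minus strand. That of Isl2 spans 55525458 to 55730376 around the start at 55541148, on the plus strand. Isl1 peaks reached 590 kb from the nearest start of the gene, and 38 of 78 and 29 of 55 lay beyond 100 kb. Isl2 had 5 and 1 distal peaks beyond 100 kb. The territories of Mnx1, Lhx3 and Lhx4 end less than 100 kb from their starts, so these genes could have none there.

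**Figure D5:**
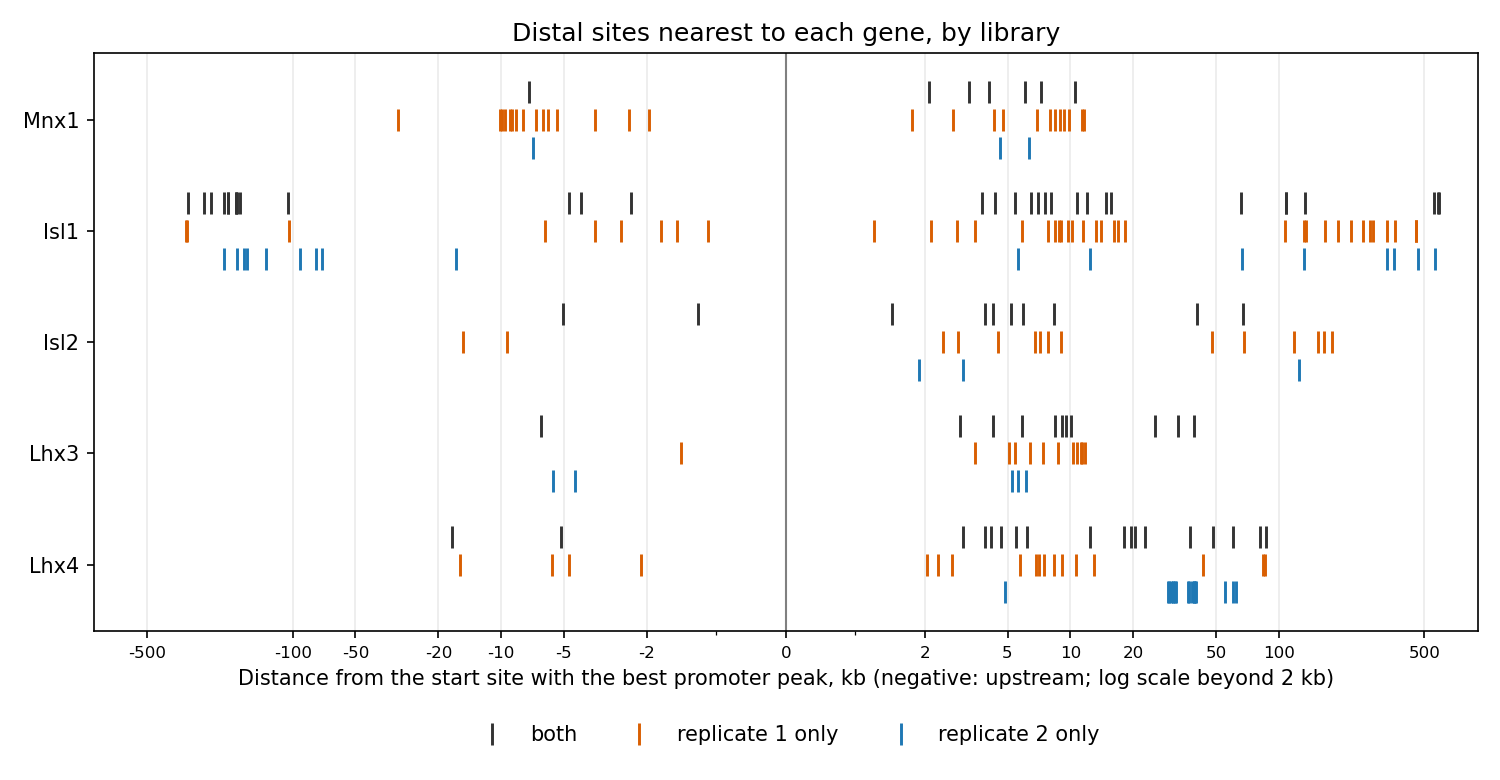
Position of each distal site relative to the TSS with the best promoter peak of its gene, in kb along the direction of transcription (logarithmic beyond 2 kb on either side). Each tick is 1 site, in separate rows for sites of both libraries, replicate 1 only and replicate 2 only. The run of replicate 1 upstream of Mnx1 and the run of replicate 2 at 29.5 to 40.2 kb inside Lhx4 stand out, as do the sites of both libraries far from Isl1.

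For Mnx1 the best distal site found in both libraries was at chr5:29467896-29468045 in replicate 1, 10.5 kb downstream of the start and past the end of the gene, with scores of 80 and 52. It was also the farthest one found in both. The next were at 6.10 kb downstream, with 85 and 44, and at 7.36 kb upstream, with 79 and 33. The site at 7.36 kb was the only upstream one of Mnx1 that both libraries shared. The best Mnx1 peak without an overlapping partner in the other library scored 78 in replicate 1, at 10.4 kb downstream. It overlapped the best shared peak of replicate 1, belonged to the same merged site and lay inside a hotspot of replicate 2.

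For Isl1 the best shared peaks were at chr13:116293976-116294125, 15.6 kb downstream of the start, with scores of 85 and 52, and at chr13:116575696-116575845, 266 kb upstream in an intron of the noncoding gene Gm47914, with 93 and 45. The third lay 4.46 kb downstream in an exon of Isl1, with 91 and 44. The farthest shared peak lay 591 kb downstream of the start, with scores of 36 and 27. Shared sites between 180 and 317 kb upstream of Isl1 numbered 10, and the strongest beyond 100 kb downstream was at 108 kb, with 76 and 52. The best Isl1 peak in 1 library only scored 70 in replicate 1, 2.66 kb upstream, outside the hotspots of replicate 2.

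For Isl2 the best shared peak was at chr9:55546276-55546425, 5.2 kb downstream of the start and just past the end of the gene, with scores of 96 and 66. The next lay in an exon, 3.90 kb downstream, with 96 and 61, and in an intron, 4.26 kb downstream, with 90 and 55. The farthest shared peak, 67.7 kb downstream in an intron of Scaper, scored 51 and 11. An intronic Isl2 peak at 2.88 kb downstream scored 116 in replicate 1, above every shared distal peak of Isl2, and no replicate 2 peak overlapped it. It lay in a hotspot of replicate 2, however, and the best distal Isl2 peak of replicate 2, with a score of 82, was next to it at 3.04 kb downstream without a shared base.

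For Lhx3 the best shared peak was at chr2:26198656-26198805, 9.56 kb downstream of the upstream start and past the end of the gene, with scores of 77 and 52. The next was at 25.5 kb downstream, with 66 and 57, and the third in an exon at 5.88 kb, with 79 and 41. The farthest shared peak, at 39.2 kb downstream, still scored 68 and 41. The best Lhx3 peak without an overlapping partner was exonic, at 5.08 kb, and scored 82 in replicate 1. It too lay in a hotspot of replicate 2, which had a peak with a score of 46 next to it at 5.26 kb.

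For Lhx4 the shared distal peak with the best mean percentile of all 5 genes was found at chr1:155759236-155759385, 17.3 kb upstream of Lhx4-201, with scores of 119 and 72. It lies outside the gene, in the DNA before the start of Lhx4-202. The next were intronic, at 19.6 kb downstream with 97 and 73 and at 4.62 kb downstream with 87 and 40. The farthest shared peak lay 86.9 kb downstream in an intron of Acbd6, with 36 and 13. The best Lhx4 peak without an overlapping partner scored 71 in replicate 1, 5.72 kb downstream, inside a hotspot of replicate 2.

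The DNA under the best shared distal peak of each gene is printed as the plus strand of GRCm38.p6 over the replicate 1 peak at the positions just given, since these lead the shared distal peaks of each gene by mean score percentile over both libraries. In a single library another shared peak of Mnx1, Isl1, Lhx3 or Lhx4 could score higher. Capitals mark motif matches as before.
Mnx1 distal: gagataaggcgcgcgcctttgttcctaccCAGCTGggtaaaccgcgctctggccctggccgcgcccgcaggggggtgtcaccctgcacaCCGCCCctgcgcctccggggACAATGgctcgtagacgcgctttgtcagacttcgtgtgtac
Isl1 distal: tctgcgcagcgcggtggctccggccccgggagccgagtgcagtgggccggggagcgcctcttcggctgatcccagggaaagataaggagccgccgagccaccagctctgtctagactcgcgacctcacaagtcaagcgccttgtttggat
Isl2 distal: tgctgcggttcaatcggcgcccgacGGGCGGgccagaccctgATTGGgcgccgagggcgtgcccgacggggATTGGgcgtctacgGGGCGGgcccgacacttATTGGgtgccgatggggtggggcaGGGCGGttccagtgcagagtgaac
Lhx3 distal: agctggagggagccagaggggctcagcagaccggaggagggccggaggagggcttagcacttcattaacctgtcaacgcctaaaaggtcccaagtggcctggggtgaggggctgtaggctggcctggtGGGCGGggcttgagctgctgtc
Lhx4 distal: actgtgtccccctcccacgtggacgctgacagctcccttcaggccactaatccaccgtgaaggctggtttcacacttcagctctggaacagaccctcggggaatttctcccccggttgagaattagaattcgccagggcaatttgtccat

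The first of these, near Mnx1, held a CAGCTG and a GGGCGG. It also held ACAATG, the letters of Sox factors. The Isl2 peak held GGGCGG 3 times and CCAAT 3 times in 150 bases, and its G and C content was 70.7%. The Lhx3 peak held 1 GGGCGG. No motif of the search was found in the Isl1 and Lhx4 peaks, which had 66.0% and 55.3% G and C.

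Motif shares in the distal peaks of the 5 genes were set beside those in all distal peaks. TAATTA, the core letters of LIM homeodomains, was in 10 of 201 distal peaks (4.98%) in replicate 1 and 3 of 135 (2.22%) in replicate 2, against 3.84% and 2.53% of all distal peaks. CAGCTG was in 12.9% and 21.5%, against 15.7% and 17.1%, and CATCTG, another E-box, in 16.9% and 17.0%, against 17.1% and 16.6%. ACAATG was in 11.4% and 5.93%, against 9.54% and 7.95%. TGATTNAT was in 3.98% and 0.741%, against 4.0% and 2.58%. CCAAT was in 19.4% and 16.3%, against 18.1% and 16.5%. GGGCGG was in 4.98% and 11.1%, against 6.42% and 8.51%, and TATAAA in 5.47% and 2.96%, against 5.81% and 4.03%. ATCGAT, the letters of Onecut factors, was in 0.498% and 0 peaks, against 0.629% and 0.542%. TAAT and ATTA separated by any 3 bases, the letters of paired homeodomains, was in 1 peak of replicate 1 near Mnx1 and 0 of replicate 2, against 0.208% and 0.113%. These letters and TAATTA can overlap. AGGTCA, any 5 bases, AGGTCA, bound by retinoic acid receptors, was in none, against 0.0386% and 0.0240%. Of these 11 motifs, 7 lay above all distal peaks in 1 library and below them in the other, 4 lay below in both, and 0 lay above in both. The Gli and REST letters were left out of this count. The Gli letters, given next, lay above in both libraries and the REST letters below in both.

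The Gli letters GACCACCCA, read by the factors that carry Hedgehog signals in the ventral neural tube, were in 2 distal peaks in each library, 0.995% of 201 and 1.48% of 135, against 0.239% and 0.233% of all distal peaks. Both were the same places in both libraries. One lies at chr13:116494211-116494219, 185 kb upstream of Isl1, in peaks that scored 34 and 10. The other lies at chr1:155719119-155719127 in an intron of Lhx4, in peaks that scored 39 and 18. None of the 5 promoters held these letters in a promoter peak.

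Genes that work with the 5 were open at their promoters throughout, which adds little where 68.5% and 67.7% of all genes were. Of 8 other LIM homeobox genes, 8 had a promoter peak in both libraries, with medians of 36 and 34 distal peaks, the 5 genes having medians of 36 and 16. The most were at Lmx1b, with 70 and 52, and Lhx5, with 66 and 78. Of 10 LIM cofactors 10 had a promoter peak, with medians of 14.5 and 8 distal peaks, the most at Lmo4 (65 and 36) and Ssbp3 (49 and 28). Ldb1, the bridge of the Isl1 and Lhx3 complex, had a promoter score of 143 and 129. Of 8 motor neuron progenitor factors 8 had a promoter peak, with the most distal peaks at Sox2 (159 and 111) and Nkx6-1 (85 and 47). Olig2, which motor neuron progenitors need, had 40 and 24. Of 12 subtype and column factors 12 had a promoter peak, with the most distal peaks at Nr2f1 (143 and 101) and Foxp1 (109 and 71). Of 12 cholinergic and axonal genes 12 had a promoter peak, with the most distal peaks at Robo2 (103 and 35) and Slit2 (61 and 37). The lowest promoter score of that list was at Chat, which encodes the enzyme that makes acetylcholine, with 48 and 11. The distal counts of these lists are not corrected for territory, which was 1714 kb for Robo2, 1431 kb for Nr2f1 and 175 kb for Lhx5.

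The genes most like each of the 5 were sought over 6 values, the best promoter score, the distal peaks and the hotspot share of the territory in each library, as percentile ranks among 21839 genes. Closest to Mnx1 were Nkx2-5, Dmrt3 and Hand1, at distances of 10.2, 10.4 and 10.6 percentile units. Closest to Isl1 were Bcl11a, Tmem132c and Schip1, at 7.37, 10.2 and 10.8. Closest to Isl2 were Zbtb16, Nt5c2 and Vegfa, at 5.23, 5.67 and 5.70. Closest to Lhx3 were Col2a1, Foxd2 and Scrt2, at 4.8, 5.92 and 6.70. Closest to Lhx4 were Pcdh1, Slit1 and Barx1, at 3.74, 3.89 and 4.94. Among the 5 themselves, Lhx3 and Lhx4 were the nearest pair, at 15.7, and Mnx1 and Isl1 the farthest apart, at 82.4.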

How the data were processed

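DNase-seq of 2 neural tube libraries was used as the authors deposited it, with peaks and hotspots called separately per library on mm10, per the labels. The authors deposited a score, a whole number, for each peak (150 bp long, except 1 peak in each library), and a −log10 q-value for each hotspot, which ran from 1.30 upwards with a highest value of 100. No aligner, caller or threshold is named in the sources used here.

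Repeated rows were removed (45 and 22). Positions were compared with 54361 TSSs of protein-coding transcripts on the main chromosomes of GENCODE vM21, and sequence was read from GRCm38.p6, with Python 3.11.15, pandas 2.3.3, numpy 2.4.6, pysam 0.24.0 and matplotlib 3.10.9. Every value is given per library, replicate 1 first. With 1 group, no test was made, so no p-value was computed, and depth is unknown. Overlap code was tested on simulated data. The genes and all gene lists were chosen with earlier results of these data known.

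For each gene the 3 best distal peaks of both libraries by mean score percentile, the farthest of both and the best of 1 library were named, and for each list the genes without a promoter peak and the 2 with the most distal peaks. Some genes under this rule are not reported here. Ldb1, Olig2 and Chat, and the runs of peaks of 1 library, were added after their values were seen. Motifs were searched as exact letters on both strands. The alternatives were the promoter width, the distal distance, the score filter, the set of TSSs, the overlap, hotspots in place of peaks and leaving out each library.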

Additional observations from a re-analysis of the deposited data

How the results depend on the processing

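Values are means of both libraries. All 5 genes kept a promoter peak under each alternative tried, without replicate 1 and without replicate 2 included (5 in each case). The 168 distal peaks became 82.5 in the higher-scoring 50% of each list, where fewer peaks enter, and 91 when noncoding genes could also be the nearest, since some peaks then go to those genes. They ranged from 135 to 201 with 1 library left out. The 51.6% of distal peaks found in both libraries ran from 41.5% with overlaps of at least 75 bp to 61.4% with noncoding genes included. These lay within the SD of 16.0 between both directions of 1 pair, which is too wide to show stability. The 1-library values were 40.3% and 63.0%. The 5.19% of territory in hotspots became 25.6% with territories bounded by noncoding genes too, which makes them smaller, and ranged from 3.44% to 6.93% with 1 library left out. Of 85 values for single genes, 57 stayed within 1.5 times. The near-equal counts of Lhx4 became 27 in replicate 1 and 14 in replicate 2 with noncoding genes included, 24 and 16 in the higher-scoring 50%, and 28 and 15 with TSSs of every transcript, an alternative chosen after seeing the data. Mnx1 had 19 and 10 with noncoding genes included. No paired analysis was possible because there is only 1 group. Unknown depth limits every count: a region without a peak was not called open at this depth.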
